A study of Saccharomyces cerevisiae with 2 samples.

Results

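Yeast cells that had spent 60 min in salt were set against yeast cells that had spent 30 min in it, feature by feature, as the log2 ratio on the 60 min array minus the log2 ratio on the 30 min array. All 6868 features of the array were considered, and the 6764 with a value other than exactly 0 on both arrays were compared; 104 were set aside, 5 of which have a gene symbol. Each ratio was that of salt-treated to unstressed cells of the same array. The later cells were Saccharomyces cerevisiae BY4742, a haploid laboratory strain of the alpha mating type with the labelled genotype WT his3kan, 60 min after NaCl was added to 0.7 M. The earlier cells had the same strain, genotype and salt, 30 min after the addition. The cells set against them on either array were BY4742 WT his3kan with no salt. All grew at 30 °C in shaken batch cultures of synthetic complete (SC) medium, and total RNA was copied to dye-coupled cDNA for NimbleGen arrays that tile the genome with probes.

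Each time had 1 array, so no value below has a replicate error and nothing was tested. Differences are described by size, and at least 2-fold means a log2 difference of at least 1 in either direction. Salt-treated cDNA carried the same dye on both arrays and unstressed cDNA the other, with no dye swap. The title of each array names a start sample. The label of the unstressed channel does so too on the 60 min array, but carries an unexplained code on the 30 min array. Whether both channels held the same RNA is not stated. A difference between the unstressed samples, the added time in culture and the added time in salt therefore cannot be told apart. The sources used here do not say which way the ratio runs. Salt over unstressed is likely, because all 13 genes of an osmostress reporter list were positive on both arrays, and "higher" and "lower" follow that direction and would swap under the other.

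When salt is added, yeast loses water and the high osmolarity glycerol (HOG) pathway is activated, a kinase cascade that switches on genes for glycerol synthesis and uptake. At the same time the general stress response is switched on, growth genes such as those of ribosome assembly are switched off, and the cell cycle pauses. Once glycerol has built up and turgor returns, signalling subsides, division resumes and the early transcript changes relax in part. Whether the cultures used here had reached that return by 60 min was not measured.

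The deposited ratios spread less on the 60 min array. Their median absolute deviation over the compared features was 0.318 at 60 min and 0.646 at 30 min, and their SD was 0.713 at 60 min and 1.34 at 30 min. A smaller response and a compressed array would both give this, and they cannot be told apart here. Every difference was therefore computed on 2 scales, as deposited and after multiplying the 60 min values by 2.03, the factor that brings their median absolute deviation to that at 30 min. A statement that holds on both scales is one that this choice does not turn. Ranks among the 6764 features, and a change of sign between the arrays, do not depend on a scale factor at all, although the sign does depend on how each array was centred.

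On the deposited scale 791 features (11.7%) were at least 2-fold higher at 60 min and 593 (8.77%) were at least 2-fold lower. On the rescaled values 849 (12.6%) were higher and 484 (7.16%) lower. On both scales together 488 features (7.21%) were at least 2-fold higher and 220 (3.25%) were at least 2-fold lower. The median difference over all features was 0.01 on the deposited scale and 0.02 on the rescaled one, so the lists below are read against a centre near 0. Of the 593 features lower on the deposited scale, 99 changed direction on rescaling, 35 of them to at least 2-fold higher. Of the 791 higher features, 19 changed direction, and 1 of them, the adenine deaminase gene AAH1, was then at least 2-fold lower. AAH1 had a log2 ratio of -2.99 at 60 min and -5.02 at 30 min, a difference of 2.03 on the deposited scale and -1.05 on the rescaled one. It ranked 2nd lowest at 60 min and 3rd lowest at 30 min, so its place hardly moved.

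**Figure D1:**
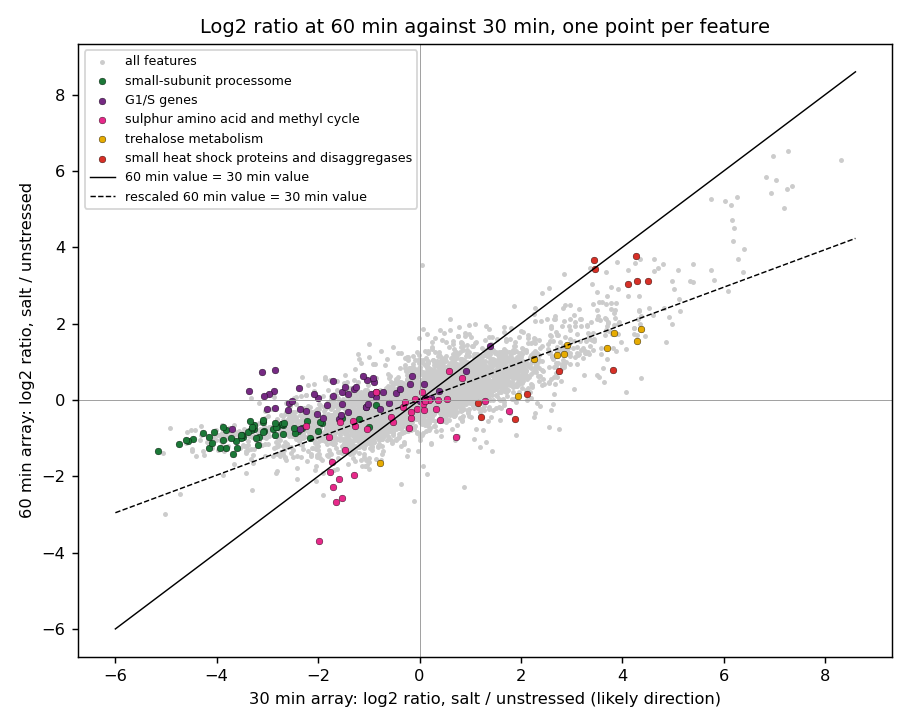
Log2 ratio of salt-treated to unstressed cells at 60 min (vertical axis) against that at 30 min (horizontal axis), 1 grey point per feature, with members of 5 gene lists in colour; the solid line marks equal deposited values and the dashed line equal values after rescaling. Most processome and G1/S genes lie above both lines on the left, the lowest sulphur genes lie below both, and most trehalose and heat shock genes lie below the solid line with part of them above the dashed one.

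Features that were far below 0 at 30 min had come further back than features far above it. The 35 features under -4 at 30 min had a median of -1.05 at 60 min and -4.32 at 30 min, and the 344 features between -3 and -2 had -0.71 at 60 min and -2.35 at 30 min. On the other side, the 29 features at 5 or more had a median of 4.50 at 60 min and 6.19 at 30 min, and the 189 between 2 and 3 had 1.04 at 60 min and 2.36 at 30 min. A single scale factor does not remove this imbalance. After rescaling, the median difference was 2.23 in the lowest class and 0.95 in the class between -3 and -2, against 2.94 in the highest class and -0.32 in the class between 2 and 3. The classes were formed from the 30 min values themselves, and how much of the shift this selection alone would give was not tested.

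**Figure D2:**
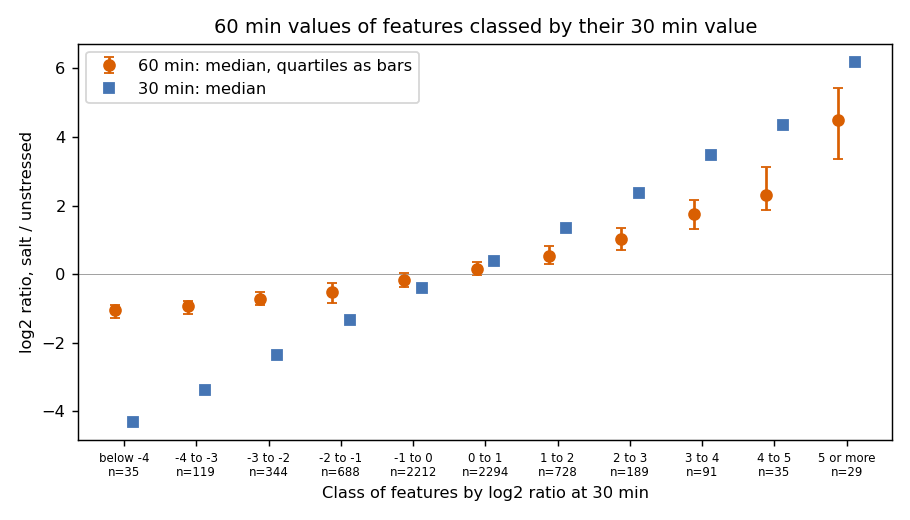
Median log2 ratio at 60 min (circles, quartiles as bars) and at 30 min (squares) for features classed by their log2 ratio at 30 min, with the number of features under each class. The 60 min medians flatten near -1 for the lowest classes but keep climbing to 4.50 for the highest.

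Among the 20 genes that were highest at 60 min relative to 30 min on both scales, the ribonucleotide reductase gene RNR1, whose product supplies DNA precursors, had a log2 ratio of 0.73 at 60 min and -3.12 at 30 min, a difference of 3.84 (14.4-fold) on the deposited scale and 4.59 rescaled. The S-phase cyclin gene CLB6 had 0.78 at 60 min and -2.84 at 30 min, a difference of 3.63 (12.4-fold) and 4.44 rescaled. NRM1, which encodes a repressor of G1/S transcription, had 0.23 at 60 min and -3.36 at 30 min. All 3 genes stood above unstressed cells at 60 min and below them at 30 min. SYO1, encoding an importer of ribosomal proteins into the nucleus, had the highest deposited difference of any feature, 4.19, with -0.72 at 60 min and -4.91 at 30 min. NCA3, a gene of the SUN family, followed another course, with 3.53 at 60 min and 0.05 at 30 min. It ranked 27th highest at 60 min and 3221st at 30 min, a difference of 3.47 on the deposited scale and 7.11 rescaled.

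The 20 genes that were lowest at 60 min relative to 30 min on both scales had varied roles. RGI1, a gene of respiratory growth, had 0.21 at 60 min and 4.07 at 30 min, a difference of -3.86 (14.5-fold) and -3.65 rescaled. It ranked 2171st highest at 60 min and 64th at 30 min. GSY1, a glycogen synthase gene, had -0.77 at 60 min and 2.75 at 30 min, a difference of -3.52 and -4.32 rescaled. EMI2, a glucokinase-like gene, had -0.72 at 60 min and 2.56 at 30 min, a difference of -3.28 and -4.02 rescaled. GSY1 and EMI2 were thus below unstressed cells at 60 min, having been above them at 30 min. HMX1, the haem oxygenase gene, likewise had -0.78 at 60 min and 1.25 at 30 min, and NCE103, the carbonic anhydrase gene, had -0.56 at 60 min and 1.36 at 30 min.

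**Figure D3:**
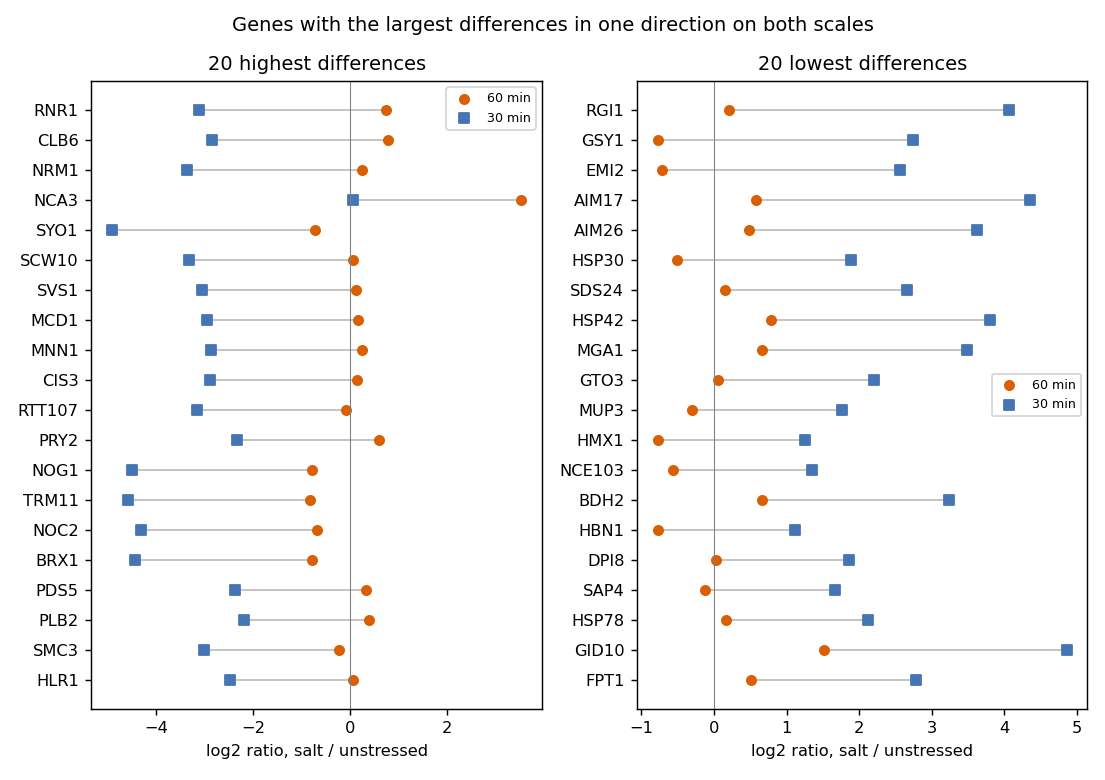
Log2 ratios at 60 min (circles) and 30 min (squares) of the 20 genes with the highest and the 20 with the lowest difference in 1 direction on both scales. Most of the higher genes lay between -5 and -2 at 30 min and near 0 at 60 min, and most of the lower ones lay above 1 at 30 min and within 1 of 0 at 60 min.

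Over all features, 714 were positive at 60 min and negative at 30 min, and 713 were negative at 60 min and positive at 30 min. Among them 146 and 110 differed by at least 2-fold. The largest deposited difference among those with a gene symbol was that of RNR1. OLE1, the only fatty acid desaturase gene of yeast, was also among the 146, with 1.46 at 60 min and -1.0 at 30 min. It ranked 208th highest at 60 min and 5578th at 30 min, a difference of 2.46 on the deposited scale and 3.97 rescaled.

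G1/S genes, which SBF and MBF switch on as cells commit to division, were mostly higher at 60 min than at 30 min. Of 56 members, 33 were at least 2-fold higher on both scales and none was lower, where 7.21% and 3.25% of all features were. Their median log2 ratio was 0.13 at 60 min and -1.44 at 30 min, and the median difference was 1.56 (interquartile range 0.86 to 2.22) on the deposited scale and 1.62 rescaled. In 28 of the 56 the sign itself turned, positive at 60 min and negative at 30 min. The cohesin genes, whose products hold sister chromatids together, were among them: MCD1 had 0.16 at 60 min and -2.96 at 30 min, and PDS5 had 0.32 at 60 min and -2.38 at 30 min. SMC3 stayed just below 0 at 60 min, with -0.22 against -3.01 at 30 min. RTT107, a scaffold of DNA repair at stalled forks, had -0.08 at 60 min and -3.16 at 30 min.

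Not every gene of the transition differed. The upstream cyclin gene CLN3 had 0.23 at 60 min and 0.39 at 30 min, and MBP1, the DNA-binding subunit of MBF, had 0.06 at 60 min and 0.22 at 30 min. The next 4 genes were picked with their values in view. The G1 cyclin gene CLN2 had 0.33 at 60 min and -1.47 at 30 min, and CLN1 had 0.62 at 60 min and -1.11 at 30 min. POL30, encoding the PCNA clamp, had -0.02 at 60 min and -2.52 at 30 min. RNR3, the damage-induced paralog of RNR1, had 1.40 at 60 min and 1.38 at 30 min. On the deposited scale it thus did not share the strong difference at RNR1, but after rescaling RNR3 too was higher at 60 min.

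Later stages of the cycle differed by less. Of 31 G2/M genes 10 were at least 2-fold higher on both scales and none was lower, with a median difference of 0.69 on either scale. FKH1, a forkhead factor, had -0.07 at 60 min and -2.63 at 30 min, a difference of 2.57 and 2.50 rescaled. The mitotic cyclin gene CLB1 had 0.12 at 60 min and -2.24 at 30 min, and CLB2 had -0.09 at 60 min and -1.99 at 30 min. Of 28 kinetochore and spindle genes 9 were higher on both scales, all 28 differences were positive on the deposited scale, and 14 genes were positive at 60 min and negative at 30 min. The kinesin genes CIN8 and KAR3 led, with differences of 1.85 and 1.58. Of 21 M/G1 and daughter-cell genes none passed 2-fold on both scales in either direction (median difference 0.23, and -0.07 rescaled). These are ratios of whole cultures, and more cells in a phase cannot be told apart from more of a transcript per cell.

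Core histone genes, whose transcripts belong to S phase too, did not follow the other G1/S and S-phase genes. The 8 core genes lay between -1.57 and -1.02 at 60 min and between -1.32 and -0.57 at 30 min. Their deposited differences ran from -0.45 to 0.06, and on the rescaled values all 8 were at least 2-fold lower, from -2.04 to -1.05. No core histone gene was higher by 2-fold on any scale used. HHF2, an H4 gene, had -1.57 at 60 min and -1.16 at 30 min, and HTB2, an H2B gene, had -1.08 at 60 min and -1.14 at 30 min. The core genes come in near-identical pairs whose signals may be shared. The variants and the linker went the other way. CSE4, the centromeric H3 variant, had -0.09 at 60 min and -1.40 at 30 min, a difference of 1.31 and 1.22 rescaled. HHO1, the linker histone, had -0.12 at 60 min and -1.21 at 30 min, and HTZ1, the H2A.Z variant, had 0.34 at 60 min and -0.57 at 30 min. This split of the histone list was made after its values were seen. Origin licensing genes, 15 in all, held 1 member past 2-fold on both scales, a share near the 7.21% of all features that were higher. It was the origin recognition gene ORC3, with 0.09 at 60 min and -1.08 at 30 min.

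Genes of 40S and 60S assembly were higher at 60 min nearly without exception, yet all members of both lists stayed below the unstressed level. In the small-subunit processome, which matures the 40S subunit, 46 of 60 genes were at least 2-fold higher on both scales and none was lower. The median log2 ratio was -0.83 at 60 min and -3.24 at 30 min, a median difference of 2.42 (interquartile range 1.98 to 2.69) and 1.44 rescaled. All 60 differences were positive on the deposited scale, and 59 were on both. NSR1, a nucleolin-like gene, had -1.33 at 60 min and -5.16 at 30 min, a difference of 3.83 and 2.46 rescaled. UTP23 had -1.05 at 60 min and -4.61 at 30 min, and RRP12, needed for export of both subunits, had -1.15 at 60 min and -4.74 at 30 min. The exception was RRP7, with -0.71 at 60 min and -0.99 at 30 min, a difference of 0.28 and -0.45 rescaled.

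Assembly factors of the 60S subunit gave nearly the same picture, with 46 of 71 genes higher on both scales and none lower (median difference 2.41, and 1.44 rescaled). The GTPase gene NOG1 had -0.78 at 60 min and -4.50 at 30 min, NOC2 had -0.69 at 60 min and -4.31 at 30 min, and BRX1 had -0.80 at 60 min and -4.43 at 30 min. The smallest differences were those of JIP5, with 0.31, and TIF6, an anti-association factor, with 0.62. Neither list held a gene that was positive at 60 min and negative at 30 min, unlike the G1/S list. Of 7 subunit genes of RNA polymerase I, which transcribes the ribosomal DNA, 5 were higher on both scales. RPA43 had -1.12 at 60 min and -4.60 at 30 min, RPA190 had -0.72 at 60 min and -3.77 at 30 min, and RPA135 had -0.91 at 60 min and -3.83 at 30 min. RPA14, named after its value was seen, had -1.31 at 60 min and -1.51 at 30 min, a difference of 0.20 and -1.16 rescaled. Of the 37 genes of RNA polymerases I and III and their factors, 10 were higher on both scales and none was lower, and 5 were positive at 60 min and negative at 30 min. TRM11, a tRNA methyltransferase gene outside these lists, had -0.83 at 60 min and -4.59 at 30 min.

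Cytosolic ribosomal protein genes differed by less and very evenly. All 136 were higher at 60 min on the deposited scale and 130 were on both scales, of which 60 were at least 2-fold higher on both and none was lower. The median was -0.66 at 60 min and -2.28 at 30 min, and the interquartile range of the difference was 1.40 to 1.86 (median 1.62, and 0.94 rescaled). RPL31B had -0.55 at 60 min and -3.35 at 30 min, the highest difference of the list, 2.80. RPL41B had -0.33 at 60 min and -0.33 at 30 min, and RPL15B had -0.79 at 60 min and -1.25 at 30 min, a difference of 0.47 and -0.35 rescaled. Many of these genes are near-identical pairs, so single values are uncertain. Of 42 translation factor genes 2 were higher by 2-fold on both scales, and of 21 tRNA synthetase genes none was. Both shares were below the 7.21% of all features, although the median differences were 0.79 and 0.66 as deposited (0.29 and 0.18 rescaled). The 67 mitochondrial ribosomal protein genes had no member past 2-fold on both scales in either direction, with a median of -0.11 at 60 min and -0.07 at 30 min.

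**Figure D4:**
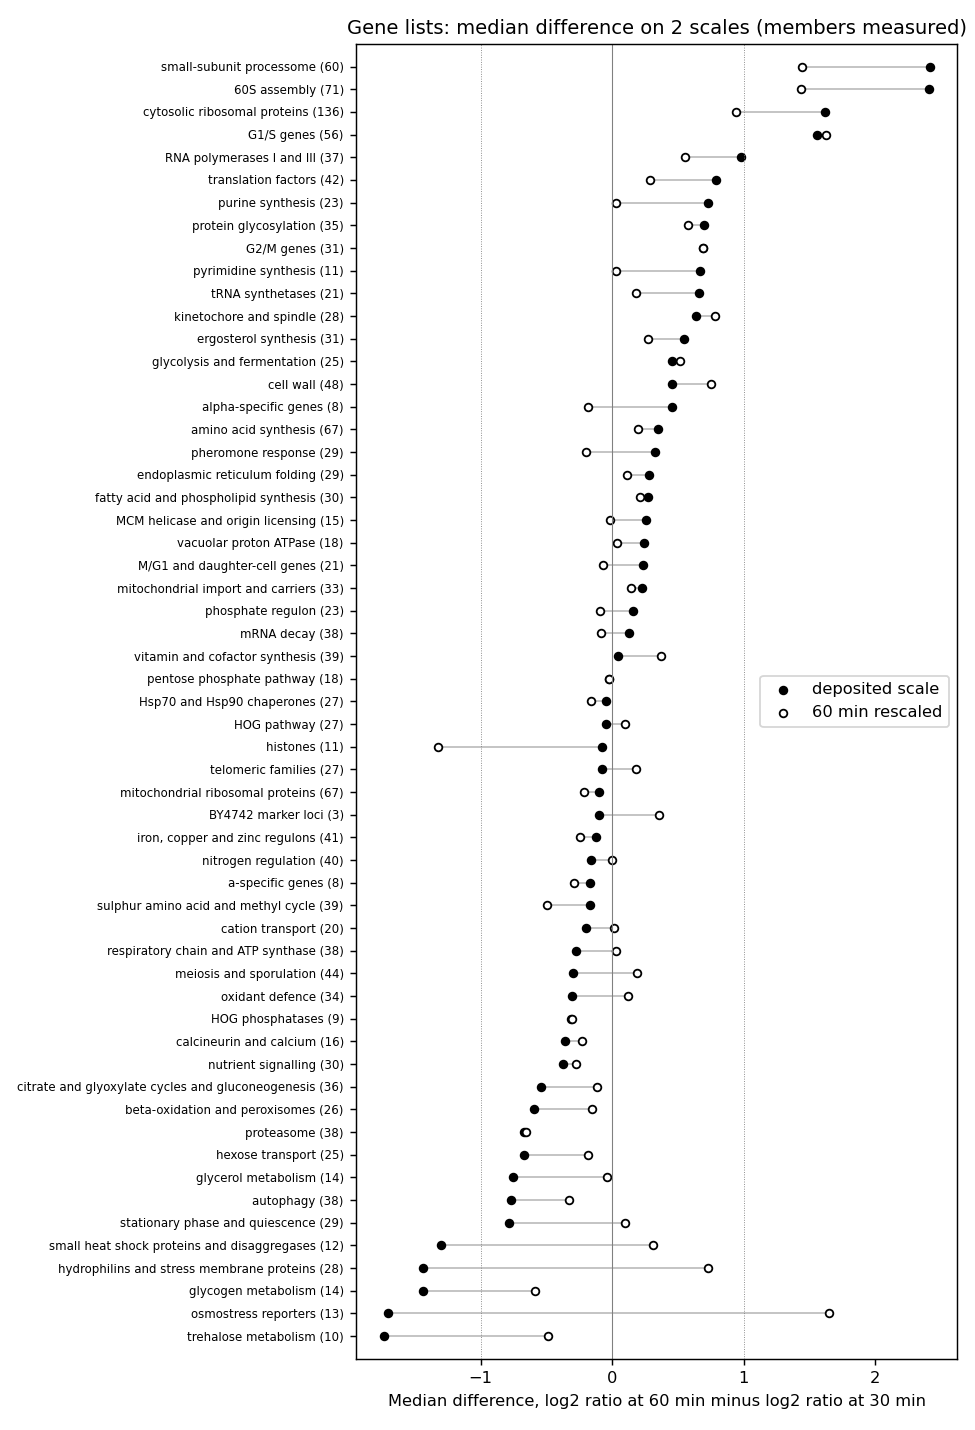
Median difference (60 min minus 30 min, log2) of the members of each gene list on the deposited scale (filled) and with the 60 min values rescaled (open), with the number of members measured in brackets; dotted lines mark 2-fold. Ribosome assembly and G1/S lists lie to the right on both scales, trehalose and glycogen lists lie to the left on both, and the osmostress reporters move from -1.71 to 1.65.

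Genes of sterol, fatty acid and cell wall synthesis were higher at 60 min in part. Of 31 ergosterol genes 6 were at least 2-fold higher on both scales and none was lower (median difference 0.54, and 0.27 rescaled), and 10 were positive at 60 min and negative at 30 min. The 3 highest differences of the list were those of ERG3, ERG5 and ERG25. ERG3, a sterol desaturase, had -0.24 at 60 min and -2.90 at 30 min, a difference of 2.66 and 2.41 rescaled. ERG5, the other sterol desaturase of the list, had 0.41 at 60 min and -2.08 at 30 min, and ERG25, a methyl oxidase, had 0.12 at 60 min and -2.23 at 30 min. The squalene synthase gene ERG9 went the other way, with 0.07 at 60 min and 0.61 at 30 min. TIR1, a cell wall mannoprotein gene kept on this list as a marker of sterol and oxygen supply, had -1.73 at 60 min and -1.06 at 30 min. ELO3, which elongates very long chain fatty acids, had -0.28 at 60 min and -3.05 at 30 min, and ELO2 had -0.24 at 60 min and -2.03 at 30 min.

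In the cell wall list 11 of 48 genes were at least 2-fold higher on both scales and none was lower (median difference 0.46, and 0.75 rescaled). SCW10, a glucanase-like wall gene, had 0.05 at 60 min and -3.33 at 30 min, a difference of 3.38 and 3.43 rescaled. CIS3, a PIR mannoprotein gene, had 0.15 at 60 min and -2.88 at 30 min, and the phospholipase gene PLB2 had 0.39 at 60 min and -2.20 at 30 min. SPI1, a stress-induced wall protein gene, had the lowest deposited difference of the list, -2.21, with 3.13 at 60 min and 5.34 at 30 min, but was 1.01 higher after rescaling. Of 35 protein glycosylation genes 5 were higher on both scales and none was lower. MNN1, a Golgi mannosyltransferase gene, had 0.24 at 60 min and -2.86 at 30 min, and PSA1, which makes GDP-mannose, had 0.07 at 60 min and -2.44 at 30 min. The high-affinity zinc transporter gene ZRT1 had 0.10 at 60 min and -2.33 at 30 min. The plasma membrane proton pump gene PMA1 had -0.55 at 60 min and -2.10 at 30 min, a difference of 1.55 and 0.99 rescaled.

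The strongest osmostress genes kept their places at the top of the array. The glycerol-proton symporter gene STL1 had 6.29 at 60 min and 8.32 at 30 min, and ranked 3rd highest at 60 min and 1st at 30 min. The hydrophilin genes GRE1 and SIP18 ranked 1st and 2nd at 60 min and 3rd and 7th at 30 min. GRE1 had 6.53 at 60 min and 7.26 at 30 min, and SIP18 had 6.39 at 60 min and 6.97 at 30 min. Whether such genes were lower or higher depends on the scale: STL1 differed by -2.03 on the deposited scale and by 4.45 rescaled. Over the 13 reporters the median difference was -1.71 deposited and 1.65 rescaled, and 10 of the 13 changed sign. With each 60 min value instead replaced by the 30 min value of the same rank, the median difference was -0.20.

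Of the reporters, GPD1 and ENA1 were lower on both scales. GPD1, the glycerol-3-phosphate dehydrogenase that leads glycerol synthesis, had 1.29 at 60 min and 3.87 at 30 min, a difference of -2.58 (5.99-fold) and -1.25 rescaled. Its rank was 262nd highest at 60 min and 72nd at 30 min. GPP2, the phosphatase of the next step, had 2.72 at 60 min and 4.12 at 30 min, a difference of -1.40 and 1.40 rescaled. The small heat shock gene HSP12 had 3.68 at 60 min and 3.44 at 30 min, the only reporter higher on both scales, and ranked 22nd at 60 min and 111th at 30 min. CTT1, the cytosolic catalase gene, had 3.96 at 60 min and 6.40 at 30 min, a difference of -2.44 and 1.65 rescaled. ALD3, an aldehyde dehydrogenase gene, had 5.42 at 60 min and 6.94 at 30 min, a difference of -1.52 and 4.06 rescaled. DDR2, GRE2 and TFS1 had deposited differences of -1.87, -1.71 and -2.01 and rescaled ones of 1.33, 0.38 and 0.38. HSP26 is described with the heat shock genes.

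Among the 14 genes of glycerol metabolism, GPD1 was the only one lower by 2-fold on both scales, and none was higher by 2-fold on both. Of all features 3.25% were lower and 7.21% higher in this way. DAK2, a dihydroxyacetone kinase gene, was higher at 60 min, with 1.95 against 1.31 at 30 min, a difference of 0.64 and 2.65 rescaled. Its paralog DAK1 had 3.37 at 60 min and 3.68 at 30 min. GUT1 and GUT2, which break glycerol down, had -0.33 and 1.09 at 60 min against 0.51 and 2.63 at 30 min. GPD2 had -1.03 at 60 min and -0.47 at 30 min, and the glycerol channel gene FPS1 had -0.31 at 60 min and -0.30 at 30 min. GCY1, a glycerol dehydrogenase gene, had 1.97 at 60 min and 3.30 at 30 min, a difference of -1.33 and 0.70 rescaled. GPP1, the phosphatase paralog of GPP2, had 0.46 at 60 min and 1.28 at 30 min. YPR1 had 1.15 at 60 min and 1.17 at 30 min, and the channel regulators ASK10 and RGC1 differed by -0.23 and -0.70 on the deposited scale, with 0.25 rescaled for ASK10.

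The sodium pump genes were close to the unstressed level at 60 min. ENA1 had 0.34 at 60 min and 2.23 at 30 min, a difference of -1.89 (3.71-fold) and -1.54 rescaled, and ranked 1569th highest at 60 min and 281st at 30 min. ENA2 and ENA5 differed by -1.86 and -1.94, but the ENA genes are near-identical copies and cannot be read as separate results. They were the 3 members of the 20-gene cation transport list lower on both scales, and none was higher on both. The calcineurin list of 16 genes likewise had 3 lower and none higher on both scales. RCN2, which encodes a regulator of this calcium-dependent phosphatase, had 0.45 at 60 min and 2.55 at 30 min, a difference of -2.10 and -1.63 rescaled. The calmodulin-dependent kinase genes CMK1 and CMK2 had 0.24 and 0.37 at 60 min against 1.70 and 1.93 at 30 min. The calcium channel genes MID1 and CCH1 had small positive differences, 0.52 and 0.36.

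Genes of the HOG pathway itself differed little. Of 27 members 2 were at least 2-fold higher on both scales and none was lower, a share near the 7.21% of all features, with a median difference of -0.05 and 0.09 rescaled. The 2 genes encode membrane proteins of the same sensor branch. MSB2, a mucin, had 0.37 at 60 min and -1.25 at 30 min, and SHO1 had -0.20 at 60 min and -1.76 at 30 min. SSK1, the response regulator gene of the other branch, had -0.09 at 60 min and 0.88 at 30 min, a difference of -0.97 and -1.07 rescaled. None of the 9 phosphatase genes listed beside the pathway, not all of which act on it, passed 2-fold on both scales. SDP1, which encodes a phosphatase of the cell wall kinase, had 1.38 at 60 min and 3.12 at 30 min, a difference of -1.73 and -0.30 rescaled.

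Trehalose and glycogen genes were lower at 60 min in every case on the deposited scale. Of 10 trehalose genes 2 were at least 2-fold lower on both scales and none was higher, where 3.25% of all features were lower, and the median was 1.30 at 60 min and 2.89 at 30 min. TPS2, the trehalose phosphate phosphatase gene, had 1.86 at 60 min and 4.37 at 30 min, a difference of -2.50 and -0.58 rescaled. PGM2, the main phosphoglucomutase gene, had 1.56 at 60 min and 4.29 at 30 min, a difference of -2.74 and -1.14 rescaled. TPS3, the other of the 2, was chosen after its value was seen and had 0.10 at 60 min and 1.94 at 30 min. Of 14 glycogen genes 4 were lower on both scales and none was higher. Besides GSY1 these were SGA1, a glucoamylase gene, with 1.38 at 60 min and 3.83 at 30 min, GLC3, the branching enzyme gene, with 0.93 at 60 min and 3.11 at 30 min, and GSY2, the second synthase gene, chosen after its value was seen, with 0.47 at 60 min and 2.55 at 30 min. The synthase genes stood apart from each other at 60 min, GSY1 below unstressed cells and GSY2 above them. GAC1, a regulatory subunit of the glycogen phosphatase, had 3.59 at 60 min and 4.26 at 30 min, a difference of -0.67 and 3.03 rescaled.

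The hexose list of 25 genes held 1 gene lower on both scales, EMI2, a share near the 3.25% of all features. HXT5, a transporter gene of slow growth, had 5.03 at 60 min and 7.18 at 30 min, a difference of -2.15 on the deposited scale and 3.03 rescaled. HXT2 had -0.98 at 60 min and -1.78 at 30 min.

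Heat shock genes fell into 2 sets by their values at 60 min, a division made after their values were seen. Of the 12 genes of small heat shock proteins and disaggregases, 6 were at least 2-fold lower on both scales. HSP42 had 0.78 at 60 min and 3.81 at 30 min, a difference of -3.03 and -2.22 rescaled, and ranked 670th highest at 60 min and 79th at 30 min. HSP104, the cytosolic disaggregase gene, had 0.75 at 60 min and 2.76 at 30 min, and HSP78, its mitochondrial relative, had 0.16 at 60 min and 2.12 at 30 min. HSP30, of the plasma membrane, had -0.51 at 60 min and 1.89 at 30 min. The other two, also chosen after their values were seen, were BTN2 and CUR1, which sort misfolded proteins, with differences of -1.67 and -1.23. These 6 genes had a median of 0.04 at 60 min and 2.01 at 30 min.

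The remaining 6 of the list stayed high, between 3.05 and 3.77 at 60 min and between 3.44 and 4.51 at 30 min. HSP26 had 3.77 at 60 min and 4.28 at 30 min, and HSP31 had 3.43 at 60 min and 3.47 at 30 min. With HSP12 and the near-identical relatives of HSP31, they were 1.85 to 4.02 higher on the rescaled values, and differed by -1.38 to 0.23 on the deposited scale. There the differences of the 2 sets overlapped, the first running from -3.03 to -1.23. Of all 12 genes, 9 were at least 2-fold lower on the deposited scale. The differences of the sets thus separated only after rescaling, which raises high 60 min values most. Of 27 Hsp70 and Hsp90 chaperone genes 2 were at least 2-fold lower on both scales, where 3.25% of all features were. SIS1, a J-protein gene, had -0.30 at 60 min and 1.18 at 30 min, and MDJ1, of mitochondria and chosen after its value was seen, had -0.47 at 60 min and 0.80 at 30 min. SSA4, the stress-induced Hsp70 gene, had 1.70 at 60 min and 4.30 at 30 min, a difference of -2.60 and -0.85 rescaled. SSB1 and SSB2, the ribosome-bound Hsp70 genes and near-identical copies, had -1.36 and -1.40 at 60 min against -2.72 and -2.54 at 30 min, which is higher at 60 min on the deposited scale and -0.04 and -0.31 on the rescaled one.

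**Figure D5:**
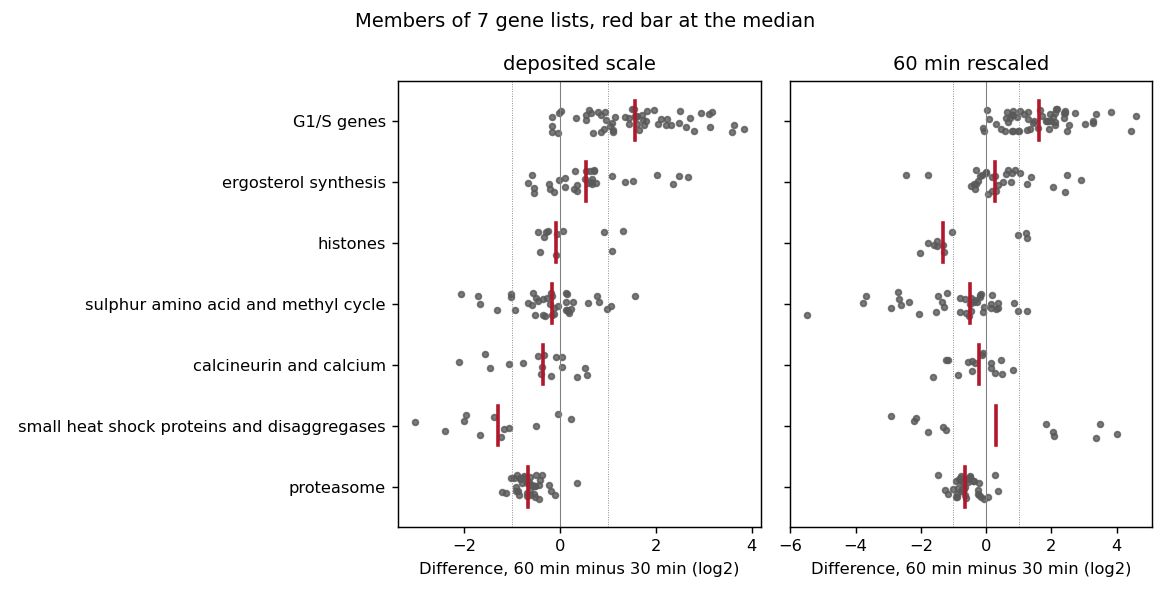
Differences (60 min minus 30 min, log2) of each member of 7 gene lists on the deposited scale (left) and with the 60 min values rescaled (right), 1 point per gene, with a bar at the median and dotted lines at 2-fold. The proteasome genes form a narrow band below 0 on both scales, and the small heat shock genes split into 2 sets after rescaling.

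Proteasome genes showed a small and even difference. The 32 genes of its 20S core and 19S regulator were all lower at 60 min, by 0.20 to 0.96 on the deposited scale and by 0.06 to 1.25 rescaled, and none passed 2-fold on both. Their median was 0.03 at 60 min and 0.66 at 30 min. Over the full list of 38 genes, 16 were negative at 60 min and positive at 30 min. The 1 member lower by 2-fold on both scales, where 3.25% of all features were, was UFD1, a cofactor of the segregase Cdc48. UFD1 had -0.26 at 60 min and 0.95 at 30 min. The 38 autophagy genes had a median difference of -0.77 and -0.33 rescaled, and none passed 2-fold on both scales. The kinase gene ATG1 had 0.49 at 60 min and 1.98 at 30 min, and ATG8, which encodes the ubiquitin-like protein of the autophagosome membrane, had 1.13 at 60 min and 2.61 at 30 min.

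Genes of nutrient signalling differed in both directions. The next 3 genes, which encode protein kinase A subunits, were chosen after their values were seen. TPK2 and BCY1 had 0.41 and 0.34 at 60 min against 1.81 and 1.59 at 30 min, while TPK3 had -0.10 at 60 min and -1.01 at 30 min. Of the 30 genes of the list 3 were lower on both scales and 1 was higher, where 3.25% and 7.21% of all features were. YAK1, a kinase that opposes growth, had 0.45 at 60 min and 2.03 at 30 min. GPA2, the G protein alpha subunit of glucose sensing, had -0.01 at 60 min and 1.39 at 30 min, and RAS2, named after its value was seen, had -0.31 at 60 min and 0.75 at 30 min. Its paralog RAS1 was the higher one, with -0.22 at 60 min and -1.50 at 30 min.

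Sulphur amino acid genes held features that were lower at 60 min than at 30 min although they already lay below 0. SAM1, an S-adenosylmethionine synthetase gene, had -3.69 at 60 min and -1.98 at 30 min, a difference of -1.70 (3.26-fold) and -5.50 rescaled. It was the lowest of all 6764 features at 60 min and ranked 504th lowest at 30 min. CYS3, cystathionine gamma-lyase, had -2.57 at 60 min and -1.53 at 30 min, and ranked 5th lowest at 60 min and 700th at 30 min. SAM2, a close paralog of SAM1 whose signal may be shared with it, had -2.67 at 60 min and -1.65 at 30 min. MUP3, a methionine permease gene, and MET13, a methylenetetrahydrofolate reductase gene, instead were negative at 60 min and positive at 30 min. MUP3 had -0.30 at 60 min and 1.76 at 30 min, and MET13 had -0.96 at 60 min and 0.71 at 30 min. Of the 39 genes of the list 6 were at least 2-fold lower on both scales and 1 was higher. The 1 higher gene was SHM2, the cytosolic serine hydroxymethyltransferase, with 0.20 at 60 min and -0.85 at 30 min. The list as a whole had a median difference of -0.17 and -0.49 rescaled.

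Other nutrient genes went both ways, where 3.25% of all features were at least 2-fold lower and 7.21% higher on both scales. Of 41 genes of iron, copper and zinc supply, 4 were lower and 1, ZRT1, was higher on both scales. Besides HMX1, TIS11, which encodes an mRNA-binding protein of the iron regulon, was at the unstressed level at 60 min and at 1.58 at 30 min, a difference of -1.58, and CCC2, a copper pump gene, had 0.12 at 60 min and 1.43 at 30 min. In nitrogen regulation 3 of 40 were lower and 2 were higher. The share of higher genes was below that of all features in both lists. CAR2, ornithine transaminase, had -1.05 at 60 min and 0.70 at 30 min, and DIP5, a dicarboxylic amino acid permease gene, had -0.67 at 60 min and 0.75 at 30 min. The tyrosine and tryptophan permease gene TAT1 had -0.38 at 60 min and -2.21 at 30 min. PUT1, proline oxidase, had 1.57 at 60 min and 0.45 at 30 min, a difference of 1.12 and 2.73 rescaled.

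Lists that serve as checks bear on how single values can be read. BY4742 lacks HIS3, LEU2, LYS2 and URA3 in its usual genotype, which was not checked here. HIS3 was among the features set aside at exactly 0, so only the other loci could be compared. LEU2 had -0.77 at 60 min and -2.22 at 30 min, a difference of 1.45 and 0.65 rescaled. URA3 had 0.20 at 60 min and 1.56 at 30 min, a difference of -1.36 and -1.15 rescaled, which puts it among the 220 lower features. LYS2 had 0.45 at 60 min and 0.55 at 30 min. A feature without a transcript can therefore pass 2-fold, if the deletions are present. Of the 811 compared features that match no entry of the reference gene table, 5.30% were higher and 5.55% lower by 2-fold on both scales, against 7.48% and 2.94% of the 5953 that match one.

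Mating-type genes cannot show the labelled mating type, because a ratio gives no level. The alpha-factor gene MF(ALPHA)1 had -0.85 at 60 min and -2.98 at 30 min, a difference of 2.14 and 1.26 rescaled, and was the 1 of 8 alpha-specific genes past 2-fold on both scales. The alpha-factor copy MF(ALPHA)2 had -2.37 at 60 min and -3.30 at 30 min, and the a-factor receptor gene STE3 had -0.34 at 60 min and -1.31 at 30 min. The agglutinin gene SAG1 had -1.84 at 60 min and -2.06 at 30 min. Of 8 a-specific genes, normally silent in alpha cells, 1 was lower on both scales, ASG7, with -0.04 at 60 min and 1.20 at 30 min. FAR1, which arrests the cycle in response to pheromone, had -0.43 at 60 min and -2.99 at 30 min. Of 44 meiosis and sporulation genes, markers of a state a haploid culture does not enter, 2 were higher and 1 lower on both scales. Of 29 stationary phase genes 1 was lower on both. These shares were near or below the 7.21% and 3.25% of all features. The stationary phase list depended on the scale, with 13 genes at least 2-fold lower as deposited and 9 at least 2-fold higher rescaled.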

How the data were processed

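The authors deposited a table of log2 ratios with 1 row per annotated feature and 1 column per array. Per the labels, each array had salt-treated cells in channel 1 and unstressed cells in channel 2. The base and direction of the log2 ratio, the background correction, the normalization, the way probes were combined and the build are among the steps not given in the sources used here. Base 2 was assumed from the range of the values, and the column medians at 0 show a centring. The file gives no intensity, so the signal behind a ratio is unknown.

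The 60 min value minus the 30 min value was computed for each feature, as deposited and with the 60 min values multiplied by the ratio of the median absolute deviations. The RefSeq gene table (assembly R64) holds the locus tag of 5984 of the 6868 features and a symbol for 5267. Counts and medians over 57 lists (1748 genes, 11 unmatched and 1 at 0) were read beside those over all features. The genes and lists were chosen with earlier results of these data known. Named genes were the 20 highest and 20 lowest on both scales, the 10 highest and 10 lowest on each scale and among sign changes, the 3 highest and 3 lowest of each list, and all members of 5 lists. Not all of them are reported. With 1 array per time no test was run. The steps were run in Python 3.11.15 with pandas 2.3.3 and numpy 2.4.6. The subtraction, the scale factor and the matching by rank were checked on a shrunk copy of the 30 min values with planted differences. That check can show only errors in the code, and the counts and lists were not checked in this way. Scaling by the SD, quantile matching, another threshold, features at 0 and the reference table were alternatives.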

Additional observations from a re-analysis of the deposited data

How the results depend on the processing

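No paired analysis was possible because each time had 1 array, and no array could be left out. Nothing here has a replicate error, and the unknown signal behind each ratio limits the reading of single genes. The promoter motif description was not run because no promoter sequences were used here. The 4 counts stayed within 1.5 times of the reported ones under the other scalings (median absolute deviation, SD, quantile matching), with features at 0 kept and with features of the reference table alone. At a 3-fold threshold 418 features were higher and 192 lower on the deposited scale, and 198 were higher and 66 lower on both scales. Read as natural logs, 1014 were lower on the deposited scale, and 810 were higher and 514 lower on both. Of the 57 list medians 17 changed sign when the 60 min values were rescaled by the median absolute deviation or by the SD, 3 of them from at least 2-fold as deposited. Those 3 were 1.65 and 1.06 for the osmostress reporters, 0.73 and 0.50 for hydrophilins and stress membrane proteins, and 0.31 and 0.036 for small heat shock proteins and disaggregases, all of which were below -1 as deposited. With quantile matching the same 3 medians stayed below 0, at -0.20, -0.31 and -0.65 in this order. Of 158 genes named, 32 changed sign on rescaling, 13 of them from at least 2-fold as deposited. For those 13, rescaled by the median absolute deviation and by the SD, in this order, the difference was 4.06 and 3.25 for ALD3, 1.65 and 1.06 for CTT1, 1.33 and 0.86 for DDR2, 0.70 and 0.41 for GCY1, and 1.40 and 0.99 for GPP2. It was 0.38 and 0.074 for GRE2, 3.03 and 2.28 for HXT5, 1.01 and 0.54 for SPI1, 4.45 and 3.52 for STL1, 0.38 and 0.033 for TFS1, -1.05 and -0.60 for AAH1, and -0.31 and -0.10 for SSB2. For SSB1 it was -0.038 by the median absolute deviation only. With quantile matching the difference was 0 for ALD3, and only 5 of the 13 changed sign. Their differences were then -0.039 for AAH1, 0.14 for GCY1, 0.17 for GPP2, -0.66 for SSB1 and -0.95 for SSB2. These changes follow from the scale itself, since each gene had the same sign on both arrays.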

Other observations

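Features of the mitochondrial genome, chosen after their values were seen, were higher at 60 min than at 30 min in 26 of 27 cases on the deposited scale. Of all 6764 features, 3403 were. The median log2 ratio of the 27 was 0.64 at 60 min and 0.26 at 30 min, with a median difference of 0.39 on the deposited scale and 1.0 rescaled. At least 2-fold higher on both scales were 4 of them (14.8%), against 7.21% of all features. The 4 were VAR1, which encodes a ribosomal protein made in the organelle, and the tRNA features tM(CAU)Q2, tR(ACG)Q2 and tT(UGU)Q1. VAR1 had 1.05 at 60 min and -0.02 at 30 min. ATP8, an ATP synthase subunit gene, had 1.15 at 60 min and 0.41 at 30 min, and COX1, a cytochrome oxidase subunit gene, had 0.56 at 60 min and 0.37 at 30 min. The genes share a genome and long transcripts, so they are not separate observations.

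Of 25 genes of glycolysis and fermentation 20 had a positive difference on the deposited scale and 15 on both (median 0.46, and 0.52 rescaled), and 8 had opposite signs on the scales. Where 7.21% of all features were, 1 was at least 2-fold higher on both scales, the triose phosphate isomerase gene TPI1, with 0.11 at 60 min and -1.16 at 30 min. PYK2 and FBP26, a minor pyruvate kinase gene and a gene whose product removes an activator of glycolysis, had 0.36 and 0.66 at 60 min against 1.66 and 2.01 at 30 min.

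Features without a gene symbol made up 15.4% of the 488 features higher on both scales and 38.2% of the 220 lower ones, against 22.2% of all features compared.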
